A study of Homo sapiens with 8 samples.

Results

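The subject is a group of 174 human miRNAs, those whose names run from miR-570-3p to miR-1184, with 15 numbers of the named range left out. They were chosen by name alone, with any letter or arm, from the 1887 human miRNAs on an Agilent miRNA array, and they carry 140 different numbers. Names of this range were given in order of discovery, so the group holds miRNAs of many families and places in the genome. The arrays were hybridised with RNA from PC-3, an established prostate cancer cell line of human origin. The cultures had been exposed for 24 h to the solvent DMSO alone, to luteolin, a flavonoid of plants, to gefitinib, which blocks the kinase of the epidermal growth factor receptor, or to luteolin plus gefitinib, with each drug at 60 µM wherever it was given. Biological replicates, as the labels name them, numbered 2 per treatment, and 1 slide read in 1 scan held all 8 arrays. The question was which of these miRNAs the cells expressed and whether the drugs changed their levels.

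A miRNA is a short RNA cut from a hairpin in a longer transcript, and it directs a silencing complex to messenger RNAs that pair with its seed, bases 2 to 8 from its 5′ end. Both strands of the hairpin stem can be kept, and they are then named the 5p and the 3p arm. Many hairpins lie in introns of protein-coding genes and are made together with the host transcript. Some later entries of the miRNA catalogue were defined from few sequence reads, or were found to be pieces of other small RNAs, such as transfer RNAs and small nucleolar RNAs (snoRNAs).

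miR-760, miR-769-3p and miR-873-5p were called in a comparison with DMSO, and their values follow. They are shown with miR-769-5p, the other arm of the miR-769 hairpin, and miR-718, which came close to the threshold. Their mature sequences from RefSeq, on build GRCh38.p14, are shown with the seed in capitals, because the seed decides what a miRNA can pair with. No other detected miRNA of the array with a sequence in the table had the seed of any of these 5.
miR-760: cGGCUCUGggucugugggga
miR-769-3p: cUGGGAUCuccggggucuugguu
miR-769-5p: uGAGACCUcuggguucugagcu
miR-873-5p: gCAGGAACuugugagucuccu
miR-718: cUUCCGCCccgccgggcgucg
miR-760 lies at chr1:93846880-93846899 on the plus strand, within BCAR3 but on the opposite strand to it. The arms of miR-769 lie at chr19:46018961-46018982 (5p) and chr19:46019000-46019022 (3p) on the plus strand, where the RefSeq table gives no other gene. miR-873-5p lies at chr9:28888925-28888945 on the minus strand, within LINGO2, which encodes a membrane protein of neurons and runs on the same strand. miR-718 lies at chrX:154019928-154019948 on the minus strand, also with no other gene over it.

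The scanner software detected 44 of the 174 miRNAs on at least 1 array (25.3%) and 27 on all 8 arrays (15.5%). Among the other 1713 human miRNAs of the array the shares were 27.9% and 19.7%. The remaining 130 were detected on no array, which sets no level for them beyond the reach of the array. Between 32 and 39 of the group were detected per array, or 7.67% to 8.50% of all miRNAs detected there. DMSO arrays had 37 and 33, luteolin arrays 39 and 32, gefitinib arrays 39 and 37, and arrays of both drugs 38 and 32, so that replicates differed as much as treatments. All detected miRNAs numbered between 395 and 481 per array.

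Detection varied along the numbering. Of the 101 miRNAs from miR-570-3p to miR-663b, 18 were detected (17.8%), and of the 30 from miR-664a-3p to miR-769-5p, 16 were (53.3%). The shares were 8 of 36 (22.2%) from miR-802 to miR-944 and 2 of 7 (28.6%) from miR-1178-3p to miR-1184. The 7 miRNAs of the miR-888 cluster on the X chromosome, a cluster known for expression in the epididymis, were undetected on every array except for miR-892b. That miRNA was detected on all 8 arrays, at scaled signals of 5.17 to 7.37.

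Of 27 miRNAs listed for a known host gene or role, 16 were detected. Both arms of miR-615 (from a hairpin in HOXC5), miR-675 (from the imprinted RNA H19) and miR-708 (from TENM4) were undetected on all 8 arrays, as was miR-605, which is known to target MDM2. The 5p arm of miR-590, made from an intron of EIF4H, which encodes a translation factor, was detected on all 8 arrays, and the 3p arm on none. As background, miR-590-5p shares its seed, AGCUUAU, with miR-21-5p, a miRNA abundant in many cancers and also detected on all 8 arrays. Its sequence is shown for that seed.
miR-590-5p: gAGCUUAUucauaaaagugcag
Its scaled signal was 12.2 and 16.4 with DMSO, 11.3 and 12.6 with gefitinib, and 12.3 and 13.4 with both drugs, and the luteolin arrays too overlapped those of DMSO.

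**Figure D1:**
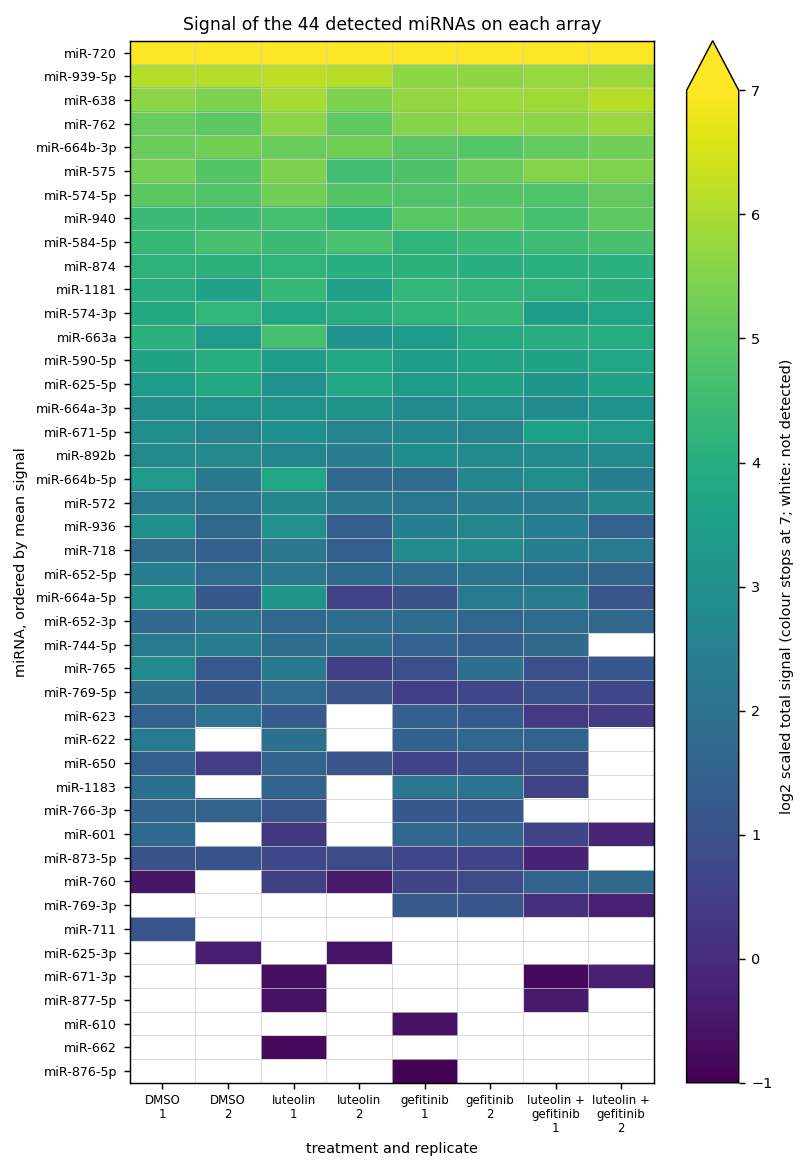
Signal of the 44 detected miRNAs (rows, ordered by mean signal) on each of the 8 arrays (columns), as log2 of the scaled total signal, with white for arrays where the software did not detect the miRNA. White cells gather in the lower rows, and miR-769-3p has colour only on the 4 arrays with gefitinib.

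Signals are given as the total signal of a miRNA over its probes, scaled so that arrays share the same 75th percentile, and they have no unit. Probes differ in how they respond, so signals were compared between treatments, and an order of miRNAs by signal is an order of brightness on the array and not of amount. The brightest of the group was miR-720, a sequence since recognised as a fragment of a threonine transfer RNA, and it ranked 2 in brightness among the 365 human miRNAs detected on all arrays. It reached 29966 and 33553 with DMSO and 30127 and 33375 with luteolin. With gefitinib it was 22079 and 21400, and with both drugs 24574 and 29189. All 4 arrays with gefitinib lay below all 4 without it. The log2 difference of gefitinib from DMSO was -0.54 (SE 0.15, limma adjusted p = 0.0874) and did not pass the threshold of an adjusted p under 0.05. With no scaling it was -0.18 (limma adjusted p = 0.671).

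The next brightest, miR-939-5p, stood in the same order. It measured 69.0 and 69.5 with DMSO and 73.6 and 70.4 with luteolin, against 49.8 and 51.3 with gefitinib and 54.0 and 55.3 with both drugs. The replicates were close and the groups with and without gefitinib did not overlap, but the differences of -0.45 (SE 0.12) for gefitinib and -0.34 for both drugs had limma adjusted p-values of 0.0708 and 0.151. The gefitinib difference was called in 6 of the 22 alternative analyses, and with no scaling it shrank to -0.09 (limma adjusted p = 0.890).

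miR-874 was steady, with 16.8 to 18.4 over the 8 arrays, a highest-to-lowest ratio of 1.09. miR-584-5p, from a hairpin in SH3TC2, ranged from 18.5 to 26.2. miR-574-5p, from an intron of FAM114A1, ranged from 28.0 to 38.5, with the highest value on replicate 1 of luteolin. miR-575 ranged from 23.2 to 46.1, and the luteolin replicates alone spanned 42.8 and 23.2. Differences of these 4 miRNAs from DMSO did not pass the test under any drug.

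Differences from DMSO were tested for the 38 miRNAs of the group that were detected on both arrays of at least 1 treatment, in 1 limma fit over the 480 human miRNAs that met this rule. The other 6 detected miRNAs (miR-610, miR-625-3p, miR-662, miR-711, miR-876-5p and miR-877-5p) appeared on 1 or 2 arrays and were not tested. A signal below detection was set to a floor of 0.609, which leaves no spread in a group undetected on both arrays and makes the standard error of such a miRNA too small.

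With luteolin alone, 0 of the 38 were called, against 2.08% of the 480 tested miRNAs. At an unadjusted limma p under 0.05 the group also had 0, against 8.54%, and the methods' t-test at an unadjusted p under 0.05 with a fold over 2 gave 0, against 2.71%. The log2 differences ran from -1.49 to 0.69 with a median of -0.05, and that over all 480 was -0.10. Values of both luteolin arrays lay above both DMSO arrays for 2 miRNAs, against 9.17% of all tested, and below for 5, against 17.7%. The call count rests on single arrays here. Without luteolin replicate 1, miR-623 and miR-766-3p, both undetected on the remaining luteolin array, were called lower, and without luteolin replicate 2, miR-760 was called higher.

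With gefitinib alone, 2 of the 38 were called (5.26%), against 12.1% of all tested miRNAs. Both were higher than with DMSO, miR-769-3p and miR-760, and the background for higher calls was 7.5%. Calls of a lower level numbered 0, against 4.58%. At an unadjusted limma p under 0.05 the count was 7, against 23.8%, and past the threshold of the methods' t-test it was 3 (7.89%, against 9.58%). The median log2 difference was -0.09, against -0.10 over all 480, and with no scaling both turned positive, to 0.26 and 0.26. Both gefitinib arrays lay above both DMSO arrays for 8 miRNAs (21.1%, against 21.5%) and below for 9 (23.7%, against 36.0%).

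With both drugs, again 2 of the 38 were called, against 12.1% of all tested miRNAs, namely miR-760, which was higher, and miR-873-5p, which was lower. The background for each direction was 6.04%. The count at an unadjusted limma p under 0.05 was 8, against 25.8%, and past the threshold of the methods' t-test it was 4 (10.5%, against 9.17%). The median log2 difference was -0.11, against -0.16. Arrays of both drugs lay above the DMSO arrays for 10 miRNAs (26.3%, against 19.6%) and below for 10 (26.3%, against 33.3%). All 3 comparisons share the 2 DMSO arrays.

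**Figure D2:**
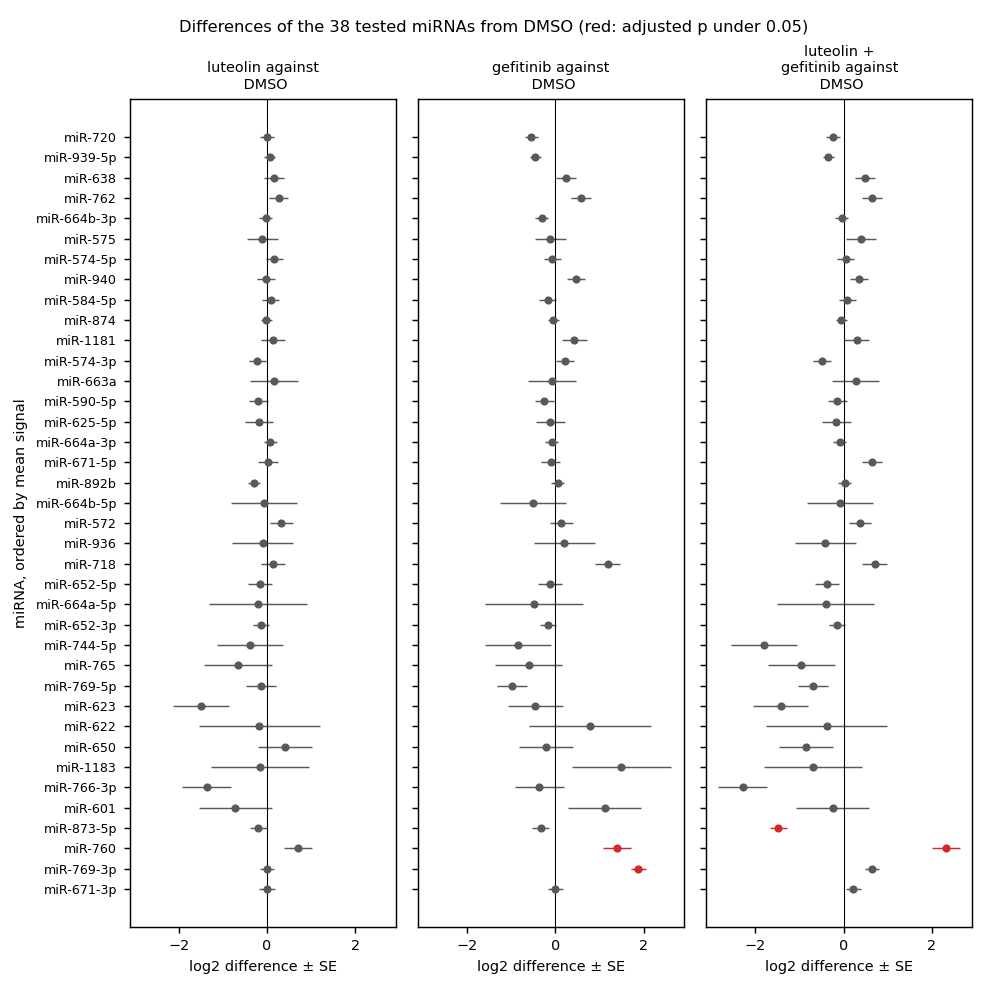
Log2 difference from DMSO with its standard error for the 38 tested miRNAs, ordered by mean signal, for luteolin, gefitinib and both drugs (n = 2 arrays per group), with called miRNAs in red. The called ones, miR-760, miR-769-3p and miR-873-5p, stand in the lowest rows, and the upper rows lie closer to 0.

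miR-760 was higher with gefitinib and with both drugs than with DMSO. Its scaled signal was 0.669 on DMSO replicate 1 and below detection on replicate 2. It was 1.43 and 0.742 with luteolin, 1.58 and 1.79 with gefitinib, and 3.03 and 3.40 with both drugs. Each drug group lay above the DMSO group, the gefitinib group above the luteolin group, and the group given both drugs above all others. The log2 difference was 1.40 with gefitinib (SE 0.32, limma adjusted p = 0.0469) and 2.33 with both drugs (limma adjusted p = 0.00915), a fitted ratio of 5.03 in which the undetected DMSO array stands at the floor. With luteolin it was 0.69 (limma adjusted p = 0.593). The floor lies below the lowest signal detected on that DMSO array (0.776), so it enlarges these differences. Both drugs stood 1.64 above luteolin (limma adjusted p = 0.0823) and 0.93 above gefitinib (limma adjusted p = 0.285), and neither passed. The interaction, the effect of both drugs less the sum of the single effects, was 0.24 (limma adjusted p = 0.986).

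The signal of miR-760 was low on every array. None of its 30 spots per array lay well above background with DMSO, against 26.7% and 23.3% with gefitinib and 26.7% on each array of both drugs. The difference with both drugs ranged from 0.10 to 3.13 on the log2 scale over the alternative analyses, with 1.10 for the mean processed signal, 1.68 for a floor of 1 and 0.23 for signal plus 16. The call was kept in 16 of 21 of them. It was lost with no filter (limma adjusted p = 0.110), with the methods' t-test, without either DMSO array and without replicate 2 of both drugs. The difference with gefitinib ranged from 0.06 to 1.65 over the alternative analyses, and its call was kept in 4 of 21. It was lost with no scaling (log2 difference 1.65, limma adjusted p = 0.0517), with the replicate block (log2 difference 1.40, limma adjusted p = 0.0601), and without either array of DMSO, of gefitinib or of both drugs. It was also lost with a floor of 1 (log2 difference 0.75), the mean processed signal (0.61), the series table, signal plus 16 (0.11), and normexp and quantile. Quantile normalization, no filter, the methods' t-test and averaged gefitinib arrays ended it too.

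miR-769-3p was detected only where gefitinib was present. It was undetected on the 4 arrays of DMSO and luteolin, 2.36 and 2.14 with gefitinib, and 1.08 and 0.836 with both drugs. It entered the test through the groups in which it was high. Of its spots, 23.3% lay well above background on each gefitinib array. With both drugs the shares were 16.7% and 3.33%, and on the DMSO and luteolin arrays 0%. Relative to DMSO, the gefitinib level was at least 3.13-fold higher, where the bound sets undetected arrays at the lowest signal detected on them (log2 difference with the floor 1.88, SE 0.17, limma adjusted p = 0.00326). With both drugs it was at least 1.33-fold higher than with DMSO (limma adjusted p = 0.0650) and at least 1.56-fold higher than with luteolin (limma adjusted p = 0.167). The level with both drugs was 2.36-fold lower than with gefitinib alone (log2 difference -1.24, limma adjusted p = 0.0107), and the groups did not overlap. The interaction was -1.24 (limma adjusted p = 0.0582) and did not pass. The gefitinib call was kept in 19 of 21 alternative analyses. It was lost with quantile normalization, where the difference was 2.10 (limma adjusted p = 0.118), and with normexp and quantile, where it was 0.08 (limma adjusted p = 0.0532). In the main fit the floor left no spread in the DMSO and luteolin groups, which makes the standard error too small. The alternative analyses reuse the same arrays, so their count is not independent support. The fall from gefitinib to both drugs ranged from -1.58 to -0.06 over the alternative analyses, and its call was kept in 12 of 21 and lost without either gefitinib array.

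The other arm of the same hairpin, miR-769-5p, was detected on all 8 arrays and did not follow the 3p arm. It measured 3.90 and 2.32 with DMSO, 3.50 and 2.14 with luteolin, 1.41 and 1.63 with gefitinib, and 2.04 and 1.71 with both drugs. On this scale all 4 arrays with gefitinib lay below all 4 without it, but before scaling replicate 1 of both drugs (2.27) lay above DMSO replicate 2 (2.04). The difference between gefitinib and DMSO was -0.99 on the log2 scale (SE 0.34, limma adjusted p = 0.148), which did not pass. Without DMSO replicate 1 it was -0.61, and without DMSO replicate 2 it was -1.36. It was called in 4 of 22 alternative analyses, with a value of -1.94 under quantile normalization (limma adjusted p = 0.00761), and was -0.62 with no scaling (limma adjusted p = 0.535).

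miR-873-5p was lower with both drugs than in each other group. It measured 1.98 and 2.03 with DMSO, 1.67 and 1.83 with luteolin, 1.64 and 1.55 with gefitinib, and 0.858 with both drugs on replicate 1, and it was below detection on replicate 2. The array of both drugs that detected it stood below all 6 arrays of the other groups. With both drugs the log2 difference was -1.47 from DMSO (SE 0.19, limma adjusted p = 0.00905), -1.28 from luteolin (limma adjusted p = 0.0388) and -1.14 from gefitinib (limma adjusted p = 0.0305), each with the undetected array at the floor. The lowest signal detected on that array was 0.830, above the floor, so the floor enlarges these differences. The differences of luteolin (-0.20) and gefitinib (-0.33) from DMSO had limma adjusted p-values of 0.901 and 0.414. The interaction was -0.95 (limma adjusted p = 0.273) and was not called, and it turned to 0.16 with the mean processed signal. Between 0% and 23.3% of the spots of miR-873-5p lay well above background. The difference from DMSO ranged from -1.72 to -0.02 over the alternative analyses, with -0.57 for the mean processed signal. Its call was kept in 14 of 21 of them. It was lost with quantile normalization, normexp and quantile, no filter (limma adjusted p = 0.0794), signal plus 16, the 2 groups compared alone (limma adjusted p = 0.0807), the methods' t-test, and without DMSO replicate 2. The call against luteolin was kept in 2 of 21 and that against gefitinib in 6 of 21. Leaving out either DMSO or gefitinib array, or replicate 2 of both drugs, ended both of these calls. Leaving out either luteolin array, or fitting the replicate block, ended the call against luteolin.

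miR-718 was close to the threshold. Its scaled signal was 3.58 and 2.76 with DMSO, 4.50 and 2.64 with luteolin, 7.03 and 7.27 with gefitinib, and 5.35 and 4.92 with both drugs. On this scale all 4 arrays with gefitinib lay above all 4 without it, but before scaling replicate 2 of both drugs (3.80) lay below luteolin replicate 1. The log2 difference from DMSO was 1.18 with gefitinib (SE 0.28, limma adjusted p = 0.0525) and 0.70 with both drugs (limma adjusted p = 0.191). The gefitinib difference passed in 11 of 22 alternative analyses, those without either luteolin array among them, and its range over them was 0.16 to 1.55.

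miR-766-3p, from a hairpin in SEPTIN6, had the most negative fitted difference of the group with both drugs, which did not pass. It was 3.03 and 2.90 with DMSO, 2.16 on luteolin replicate 1 and below detection on luteolin replicate 2, 2.32 and 2.31 with gefitinib, and undetected on both arrays of both drugs. It was at least 4.30-fold lower with both drugs than with DMSO and at least 3.35-fold lower than with gefitinib, with limma adjusted p-values of 0.0555 and 0.206. Of 21 alternative analyses, the difference from DMSO was called in 8 and that from gefitinib in 4. For both, these included the groups compared alone and the methods' t-test after adjustment. The spread that enters the main tests includes the luteolin replicates. Without luteolin replicate 1 or without luteolin replicate 2, both differences were called.

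**Figure D3:**
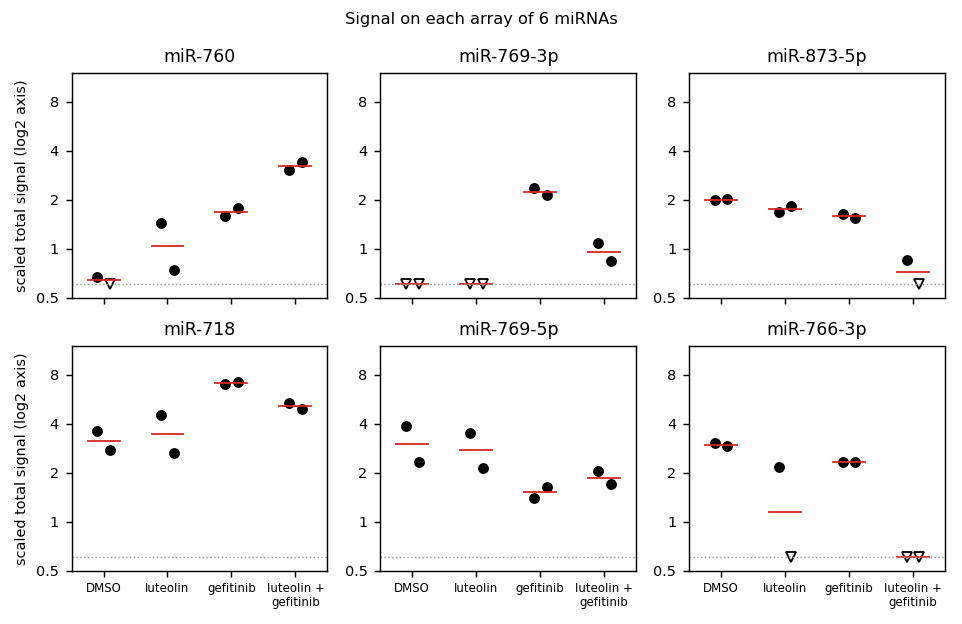
Scaled total signal (log2 axis) of 6 miRNAs on each array, by treatment, with filled circles for detected values, open triangles at the floor of 0.609 (dotted line) for undetected ones, and red lines for the geometric mean of 2 arrays. miR-769-3p is at the floor with DMSO and luteolin and 2.36 and 2.14 with gefitinib, while miR-760 ends at 3.03 and 3.40 with both drugs.

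Comparing both drugs with each drug alone, 1 of the 38 was called against luteolin, miR-873-5p, where 1.88% of all tested miRNAs were (1.25% higher and 0.625% lower). Against gefitinib 2 were called, miR-769-3p and miR-873-5p, both lower, where 4.58% of all tested were (1.04% higher and 3.54% lower). Calls of the interaction numbered 0 in the group at an adjusted limma p under 0.05 and 2 at an unadjusted p under 0.05, where 3.33% (1.88% higher and 1.46% lower) and 10.2% of all tested passed. miR-671-5p, known for directing the cleavage of the circular RNA CDR1as, was not called in any comparison. It measured 7.85 and 5.96 with DMSO, 8.02 and 6.04 with luteolin, 6.57 and 6.15 with gefitinib, and 11.7 and 9.73 with both drugs. On this scale both arrays of both drugs lay above the other 6, and the differences of 0.64 from DMSO, 0.62 from luteolin and 0.75 from gefitinib had limma adjusted p-values of 0.151, 0.259 and 0.214. The difference from DMSO was called in 3 of 22 alternative analyses, with quantile normalization (limma adjusted p = 0.0435), normexp and quantile (0.0427) and the replicate block (0.0444). Before scaling, replicate 2 of both drugs stood at 7.53, below luteolin replicate 1 at 8.56. Its other arm, miR-671-3p, was detected with both drugs, at 0.575 and 0.830, and on luteolin replicate 1, at 0.609. It was detected on no DMSO or gefitinib array. The fit raised the 0.575 and the luteolin value to the floor. The detection limit of the DMSO arrays leaves no fold to give for both drugs against DMSO (limma adjusted p = 0.502).

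Hairpins with both arms on all 8 arrays were those of miR-574, miR-652, miR-664a and miR-664b. In the RefSeq table the miR-664a hairpin lies in RAB3GAP2 and that of miR-664b in DKC1, which encodes the snoRNA-binding protein dyskerin. As background, both hairpins are known to overlap an snoRNA gene. Their arms are printed to show how alike the pair is.
miR-664a-5p: aCUGGCUAgggaaaaugauuggau
miR-664b-5p: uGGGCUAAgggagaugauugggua
miR-664a-3p: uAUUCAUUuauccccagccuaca
miR-664b-3p: uUCAUUUGccucccagccuaca
The seeds, in capitals, differ between the members of each pair, while much of the remaining sequence is shared, and how far the probes of each also read the other was not tested. The 5p arms varied more between replicates than between treatments. miR-664a-5p measured 8.09 and 2.31 with DMSO, 9.40 and 1.49 with luteolin, 1.98 and 4.82 with gefitinib, and 5.08 and 2.10 with both drugs. miR-664b-5p moved alongside, at 9.96 and 4.66, 12.9 and 3.29, 3.52 and 6.56, and 7.71 and 5.46 in the same order of groups. Replicate 1 was the higher one in every group but gefitinib, where replicate 2 was. The 3p arms showed none of this. miR-664a-3p lay between 7.22 and 8.87 and miR-664b-3p between 29.9 and 39.5, and replicates of these 3p arms differed by at most 0.22 on the log2 scale.

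The replicate differences of miR-664a-5p, 1.81 for DMSO, 2.66 for luteolin and 1.29 for gefitinib on the log2 scale, were each the widest of their group over all 365 miRNAs detected on all arrays. Among the miRNAs of the group detected on all 8 arrays, others with replicates over 2-fold apart in DMSO or luteolin were miR-664b-5p, miR-765, miR-936 and miR-663a. Over the 27 miRNAs detected on all 8 arrays, 4 (14.8%) had DMSO replicates over 2-fold apart, against 5.75% of the 365, and 5 (18.5%) had such luteolin replicates, against 11.2%. For gefitinib it was 1 (3.70%, against 0.548%) and for both drugs 1 (3.70%, against 3.29%). Differences between replicates of DMSO and luteolin went the same way across the 27 miRNAs (Pearson's r = 0.958, against 0.908 over the 365). Those of both drugs did so too (r = 0.719 with DMSO, against 0.409). Those of gefitinib went the opposite way in the 27 (r = -0.746 with DMSO), against r = -0.135 over the 365. These are correlations across miRNAs of the same arrays, given as a description. miR-622, miR-1183 and miR-601 were undetected on replicate 2 of DMSO and of luteolin and detected on replicate 1 of both and on both gefitinib arrays.

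**Figure D4:**
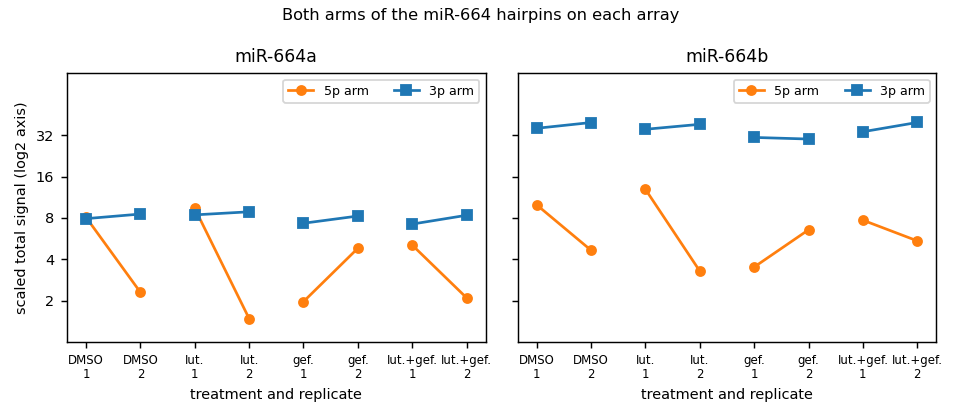
Scaled total signal (log2 axis) of the 5p arm (orange circles) and 3p arm (blue squares) of miR-664a and miR-664b on each array, with lines joining the 2 replicates of a treatment (lut., luteolin; gef., gefitinib). The 3p arms are level, whereas the luteolin replicates of miR-664a-5p span 9.40 and 1.49.

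The other hairpins with both arms were steadier. miR-652-3p, from an intron of TMEM164, lay between 3.11 and 4.24, and miR-652-5p between 2.99 and 5.30. With both drugs, miR-574-3p measured 11.2 and 13.0, the lowest values of the 8 arrays, against 14.5 and 19.8 with DMSO and 19.1 and 20.4 with gefitinib. The log2 difference between both drugs and gefitinib was -0.71 (limma adjusted p = 0.206) and did not pass.

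Detection varied with base composition. A mature sequence was found in the RefSeq table for 140 of the 174 miRNAs and for 39 of the 44 detected. Of 12 with at least 70% G and C, 8 were detected (66.7%), against 49.6% of all such miRNAs of the array. Of 71 between 50% and 70%, 23 were (32.4%), against 31.6% over the array, and of 57 under 50%, 8 were (14%), against 19.2% over the array. Over the whole array, too, the share was higher in each band richer in G and C. The 8 detected members with at least 70% G and C were miR-572, miR-638, miR-663a, miR-718, miR-760, miR-762, miR-940 and miR-1181. A set of 4 is printed to show how few bases other than G and C they hold.
miR-762: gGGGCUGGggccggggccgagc
miR-638: aGGGAUCGcgggcggguggcggccu
miR-940: aAGGCAGGgcccccgcucccc
miR-1181: cCGUCGCCgccacccgagccg

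Of these 8 GC-rich members, 1 was called with gefitinib and with both drugs, miR-760, where 12.1% of all tested miRNAs were called in each comparison. miR-762 measured 35.3 and 31.4 with DMSO, 48.7 and 32.6 with luteolin, 47.0 and 52.4 with gefitinib, and 49.0 and 55.1 with both drugs. Its difference from DMSO was 0.58 with gefitinib (limma adjusted p = 0.192) and 0.64 with both drugs (limma adjusted p = 0.151). miR-940 measured 22.1 and 22.5 with DMSO, values that lay between those of luteolin, 30.4 and 31.5 with gefitinib, and 25.2 and 32.2 with both drugs. For both miRNAs the arrays with gefitinib lay above the DMSO arrays, without passing the test. miR-638, made from a hairpin in the dynamin gene DNM2, also had its gefitinib arrays above the DMSO arrays, at 49.2 and 43.1 with DMSO, 62.2 and 42.7 with luteolin, 52.2 and 57.2 with gefitinib, and 58.1 and 70.9 with both drugs. Its differences of 0.25 and 0.48 had limma adjusted p-values of 0.610 and 0.261. miR-1181, from a hairpin in CDC37, which encodes a co-chaperone of kinases, lay between 11.9 and 20.3.

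Of the 7 GC-rich members detected on all 8 arrays, the difference from DMSO was above 0 in 6 with luteolin, 6 with gefitinib and 7 with both drugs, with medians of 0.15, 0.43 and 0.37. With luteolin this rests on 1 array: replicate 1 lay above both DMSO arrays for all 7, whereas replicate 2 lay below both for 5 of them. The 53 GC-rich miRNAs of the whole array detected on all arrays had medians of 0.11, 0.21 and 0.30, with 32, 33 and 39 above 0. The 11 members with 50% to 70% G and C had medians of -0.13, -0.16 and -0.16, and the 5 under 50% had -0.18, -0.11 and -0.14. Across the 23 members with a sequence that were detected on all arrays, the share of G and C correlated with the difference from DMSO at Pearson's r = 0.570 for luteolin, 0.658 for gefitinib and 0.688 for both drugs (Spearman's rho 0.484, 0.675 and 0.573). Over 303 miRNAs of the array the r values were 0.150, 0.211 and 0.240. The points come from the same arrays and share the DMSO samples, so these values are a description.

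**Figure D5:**
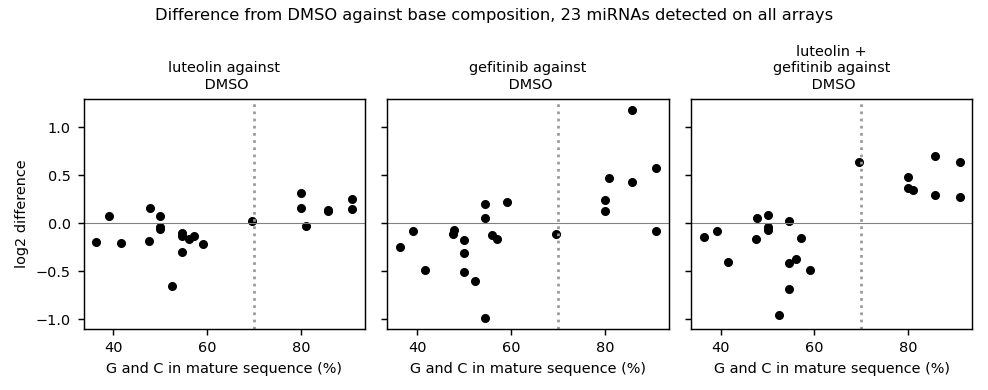
Log2 difference from DMSO against the percentage of G and C in the mature sequence for the 23 miRNAs of the group that have a sequence and were detected on all 8 arrays, for each treatment, with a dotted line at 70%. Points to the right of the line lie mostly above 0, with medians of 0.15, 0.43 and 0.37.

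Position in a host gene was set beside the responses as well. Of 113 members with a hairpin inside another gene on the same strand, 30 were detected and 26 tested, and of 35 with no such gene, 9 were detected and 7 tested. Calls with gefitinib numbered 0 of the 26 and 2 of the 7, and with both drugs 1 of the 26 and 1 of the 7, where 12.1% of all tested miRNAs were called in each comparison. Of the 15 tested miRNAs listed for a known host or role, 1 was called with gefitinib (miR-769-3p) and 0 with both drugs. miR-744-5p, from an intron of the kinase gene MAP2K4, was among those not called. It measured 4.84 and 5.10 with DMSO, 3.67 and 3.91 with luteolin, and 2.85 and 2.71 with gefitinib. With both drugs it was 3.36 on replicate 1 and below detection on replicate 2. All drug arrays lay below the DMSO arrays, with log2 differences of -0.39 for luteolin, -0.84 for gefitinib and -1.80 for both drugs (limma adjusted p = 0.974, 0.598 and 0.206). It was called lower with gefitinib under the mean processed signal, the series table, groups compared alone, the methods' t-test after adjustment, and without either array of both drugs. With both drugs it was called lower under the mean processed signal and the series table, and without replicate 1 of that group.

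As a check of the cell type, the epithelial miRNAs miR-200a-3p, miR-200b-3p and miR-429 were detected on all 8 arrays and miR-205-5p on 6, while miR-200c-3p, miR-141-3p and miR-203a were undetected. Of the markers of blood cells, miR-142-3p was detected on 1 array (luteolin replicate 2) and the others on none, and those of muscle, liver, neurons and endothelium were undetected. Fewer cells that express a miRNA and less of it per cell cannot be told apart in RNA from whole cultures. The 75th percentile used for scaling lay between 60.5 and 92.7, highest on the gefitinib arrays. With no scaling, the median difference over all 480 miRNAs for gefitinib moved up by 0.36 on the log2 scale, to 0.26.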

How the data were processed

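Total RNA was measured on 8 one-colour Agilent miRNA arrays. The deposited values are linear signal intensity, extracted by the authors with Feature Extraction 10.7.3.1 (array design build hg19), background-subtracted and not normalized between arrays. Undetected miRNAs are set to 0.1. The deposited series table matches the processed spot intensity within 0.5%. Each miRNA has 30 spots per array, and 0 spots were saturated. The number of arrays limits the precision.

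Total signals were divided by the 75th percentile over the 365 miRNAs detected on all 8 arrays and multiplied by the geometric mean of these percentiles, raised to a floor of 0.609, log2-transformed and tested for 480 miRNAs with limma 3.58.1 (lmFit, eBayes) in R 4.3.3, two-sided, with Benjamini-Hochberg adjustment over the 480. Residual degrees of freedom were 4, to which the prior added 1.66. An exact permutation test of 2 arrays against 2 cannot go below p = 0.333 and was not used. The methods' t-test was an alternative, counted past an unadjusted p under 0.05 with a fold over 2 in the report, and after Benjamini-Hochberg adjustment among the alternatives. The procedure was run on simulated data that held no floored values. That run does not test the floored signals on which the called miRNAs rest.

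The miRNAs and lists were chosen with earlier results of these data known. miRNAs were named when called or bounded against DMSO, when among the 3 strongest calls per direction elsewhere, when among the 10 strongest signals, when both arms were on all arrays, or as list examples. miR-718, miR-766-3p, miR-671-5p, miR-769-5p, miR-744-5p, miR-623 and those with uneven replicates were named after their values were seen. RefSeq sequences and genes are on GRCh38.p14, another build than the array design. The labels call the arrays biological replicates but do not name separate cultures, so p-values measure the spread between these samples.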

Additional observations from a re-analysis of the deposited data

How the results depend on the processing

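Counts of called miRNAs, out of 38, shifted with the processing. Those of the methods' t-test are after Benjamini-Hochberg adjustment. The main counts were 0 for luteolin, 2 for gefitinib and 2 for both drugs against DMSO, 1 for both drugs against luteolin, 2 against gefitinib, and 0 for the interaction. For gefitinib the count was 1 with no scaling, with only miRNAs detected on all arrays, or with gefitinib arrays averaged, and 4 with the mean processed signal, the series table, normexp and quantile, signal plus 16, groups compared alone or the methods' t-test. For both drugs against DMSO it was 5 with quantile normalization or normexp and quantile, 4 with the mean processed signal or series table, 1 with no filter or the methods' t-test, and 0 with only miRNAs detected on all arrays. Against luteolin it was 3 with normexp and quantile, 2 with a floor of 1, and 0 with no scaling, quantile normalization, no filter, detection on all arrays, groups compared alone, the methods' t-test or gefitinib arrays averaged. Against gefitinib it was 1 with quantile normalization, the mean processed signal, the series table or the methods' t-test, and 0 with normexp and quantile, no filter, detection on all arrays, signal plus 16 or gefitinib arrays averaged. With a floor of 1, the interaction was called for 1, miR-769-3p. The count for luteolin was 0 under each of these settings. Leaving out 1 array gave ranges of 0 to 2 (luteolin), 1 to 3 (gefitinib), 0 to 5 (both drugs against DMSO), 0 to 2 (against luteolin), 0 to 4 (against gefitinib) and 0 to 1 (interaction). The fit pools the spread, so an array left alone in its group is assumed to vary like the others. The interaction of miR-873-5p turned positive, to 0.16 with the mean processed signal, 0.16 with the series table and 0.0010 with normexp and quantile. Replicate numbers did not pair all groups: the correlation of replicate differences over 365 miRNAs was 0.908 for DMSO with luteolin, 0.409 for DMSO and 0.461 for luteolin with both drugs, but -0.135, -0.093 and 0.065 for gefitinib with these 3 groups. With the replicate block the counts were 0, 2, 3, 0, 2 and 0 in the order above, and for gefitinib the 2 were miR-718 and miR-769-3p, without miR-760. With the block and gefitinib numbers crossed, an alternative chosen after seeing the data as was the averaging of gefitinib arrays, they were 0, 4, 2, 0, 1 and 0. Scaling by the percentile over all human miRNAs was not run, since that percentile is the undetected value on 5 arrays, and a slide block could not be fitted with 1 slide. The cause of these shifts was not tested. Low shares of spots well above background limit the called miRNAs.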
